A study of Rattus norvegicus with 6 samples.

Results

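Genes for lysosomal enzymes, for inhibitors of cathepsins, for proteins of the lysosomal membrane and for factors that sort or regulate them were compared between cystic Cy/+ and normal +/+ rat kidneys. The genes were a list of 52 symbols, and each was measured by the array's probe sets that are annotated to that symbol alone. Of these 52 genes, 51 had such a probe set and all 51 were bright enough to be tested, among 10645 genes tested in the whole series. The brightest probe set over the 6 arrays stood for its gene. Sgsh, a sulfatase of heparan sulfate breakdown, had no probe set under its name and has no value here. The samples were total RNA from kidney of male Han:SPRD rats, 3 heterozygous Cy/+ and 3 wild-type +/+, hybridized to 1 array each. The study's description of the arrays names no treatment for either genotype. GEO's labels give an age of 10 weeks, while the study's methods give a younger age for the array samples. Cy/+ rats carry 1 copy of a mutated Anks6 in every cell of the body and develop cysts slowly. No source used here says that the samples of a genotype came from separate rats, and the p-values may therefore rest on technical spread alone.

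The lysosome is the acidic compartment in which cells break down proteins, glycans, lipids and nucleic acids. Most of its soluble enzymes receive a mannose 6-phosphate tag in the Golgi and travel on mannose 6-phosphate receptors, while transporters and channels in its membrane export the products. The transcription factors TFEB and TFE3 bind short E-box motifs before many lysosomal genes and raise their transcription. In the kidney, lysosomes are prominent in the proximal tubule, which takes up and degrades filtered protein, and they are also prominent in macrophages. Cathepsins are the proteases of this compartment, and some of them also act outside the cell.

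Kidney markers were read in both genotypes. The 12 collecting duct markers summed to 12802 to 14533 on the +/+ arrays and 9794 to 27448 on the Cy/+ arrays. The 5 podocyte markers summed to 3435.5 to 3840 in +/+ and 2679 to 4071 in Cy/+. Each of these markers, and each of 16 proximal tubule markers, reached the filter signal (77.8) in at least 1 genotype. The cell type markers differed between genotypes. Of the 5 podocyte markers, 4 were lower in Cy/+ kidneys and 1 was higher, at a median log2 fold change of -1.30. Of 8 endothelium markers tested, 5 were lower and 0 higher, at a median of -0.97. Among the 12 collecting duct markers, 1 was higher and 1 lower. All 16 proximal tubule markers tested were lower in Cy/+ kidneys, with a summed signal of 124163 to 131714 on the +/+ arrays and 15785 to 39324 on the Cy/+ arrays. Of 16 macrophage markers tested, 15 were higher. The 18 macrophage markers with a probe set, tested or not, summed to 10624 to 12032 in +/+ and 20719 to 31005 in Cy/+. Among them, Cd163 lay below the filter signal in both genotypes. All 9 markers of tubular injury were higher. In such whole-tissue RNA, fewer cells of a type and less RNA per cell cannot be told apart. The array controls also differed with genotype. The 24 probe sets for spiked poly-A RNAs were brighter on all Cy/+ arrays than on any +/+ array, by a median of 3.82-fold, and the 18 for hybridization controls by 1.83-fold. For beta-actin, the 3′ probe set divided by the 5′ probe set gave 1.51 ± 0.0057 in +/+ and 3.22 ± 0.26 in Cy/+ (SD, n = 3). The part of cell makeup, labeling and RNA quality in the values that follow was not tested.

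The lysosomal genes did not move in 1 direction. Of the 51, 16 rose in Cy/+ kidneys, 17 fell and 18 did not pass, by limma with Benjamini-Hochberg adjustment over all probe sets tested and a threshold of 0.05. The 64.7% that passed stood beside 66.7% of all 10645 genes, of which 37.4% were higher and 29.3% lower. Of the 51, 11 passed and differed at least 2-fold, 6 higher and 5 lower, where 22.3% of all genes did so. The arrays of the genotypes did not overlap in 36 of the 51, against 74.6% of all genes. By these shares the list was close to the background of the array. The same shares of all genes are the background for the counts by role and by further group below. The median log2 fold change was -0.0016 for the list and 0.09 for all genes, and the median absolute log2 fold change was 0.37 against 0.48. Individual genes ran from a log2 fold change of -1.99 for Neu1 to 2.81 for Ctse. Of the 33 genes past the threshold, 21 stayed past it in the same direction under every alternative run for them, 9 higher and 12 lower. Without +/+ replicate 2, only 9 genes were higher.

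**Figure D1:**
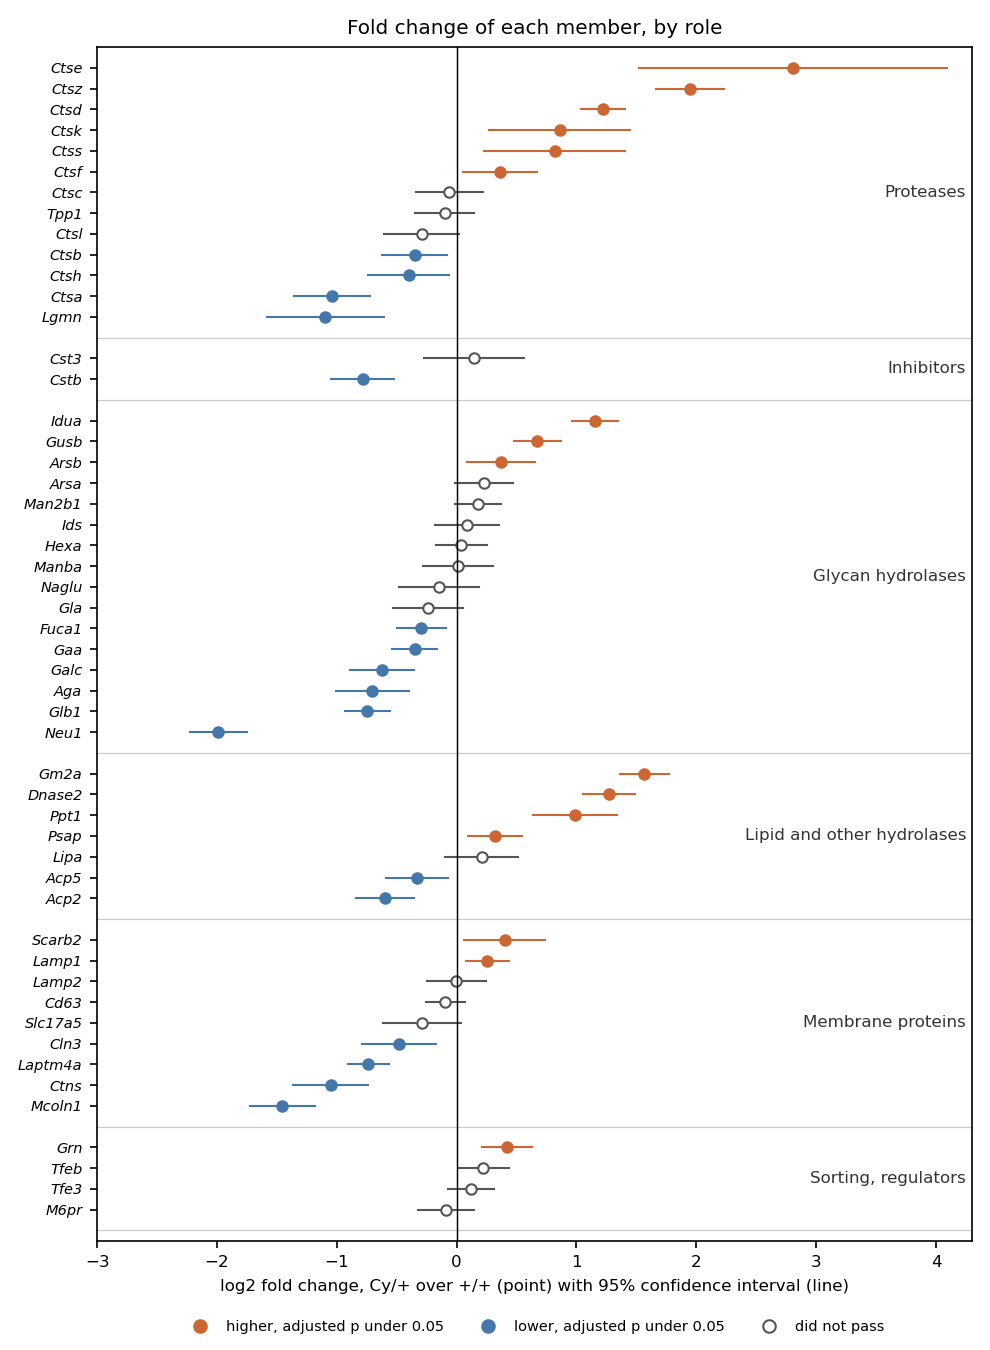
The log2 fold change of each lysosomal gene is plotted on the horizontal axis, Cy/+ over +/+, as a point with its 95% confidence interval as a line, and the genes are grouped by role on the vertical axis. Filled orange points are the 16 genes higher in Cy/+, filled blue points the 17 lower and open points the 18 that did not pass, and every role except the protease inhibitors and the sorting factors holds both colours.

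Of the 4 sorting factors and regulators on the list of 52, granulin was the gene that passed the threshold. Grn encodes progranulin, a secreted protein that is delivered to lysosomes and supports their enzymes. Its signal was 4966, 4607 and 4188 on the Cy/+ arrays and 3479, 3243 and 3540 on the +/+ arrays. Every Cy/+ array lay above every +/+ array, with a log2 fold change of 0.42 (SE 0.09) and an adjusted p of 0.00429. Tfeb, the transcription factor named above, read 585.5, 684.5 and 620.5 in Cy/+ and 527, 528.1 and 561.2 in +/+. Its arrays were also apart, yet the log2 fold change of 0.22 (SE 0.09) did not pass at an adjusted p of 0.0601. Tfeb passed the threshold with array weights and without Cy/+ replicate 1. It also passed, at the same log2 fold change, in the fit of gene values, since Tfeb has 1 probe set and only the fit and adjustment over genes differed. Its relative Tfe3 had overlapping arrays, and its log2 fold change was 0.12 (adjusted p = 0.238). M6pr, the cation-dependent mannose 6-phosphate receptor, stood at -0.09 on the log2 scale (adjusted p = 0.463), and it was lower only without Cy/+ replicate 1.

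The cation-independent mannose 6-phosphate receptor was lower in Cy/+ kidneys. Its gene Igf2r, whose product carries tagged enzymes to the lysosome and also takes up insulin-like growth factor 2, was not on the list of 52. Its signal was 2568, 2031 and 2490 in Cy/+ and 7662, 7398 and 6961 in +/+. No Cy/+ array came near the +/+ arrays, and the log2 fold change was -1.64 with an adjusted p of 3.65e-05. The difference between the receptors was not tested. The transferase that makes the tag has subunits encoded by Gnptab and Gnptg, chosen here after their values were seen. Gnptab was higher, by 0.49 on the log2 scale (adjusted p = 0.00141), and Gnptg was lower, at -0.63 (adjusted p = 0.000467).

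E-box motifs were then looked for in the promoters, because they are the sites through which TFEB and TFE3 act. RefSeq promoter windows of the rat assembly GRCr8 matched 44 of the 52 genes by symbol, and the 250 bases before the start site were searched on both strands. The core letters CACGTG stood in 11 of the 44 (25%), in 6.38% of all 19005 protein-coding promoters and in 19 of 108 other lysosomal genes (17.6%). The extended form TCACGTG, which contains the core, stood in 9 of 44 (20.5%) against 3.5% of all, and the palindrome TCACGTGA in 4 of 44 (9.09%) against 0.973%. Among genes with a window, the core was found in 3 of 12 that were higher, 6 of 16 that were lower and 1 of 15 that did not pass, and it was also found before Sgsh, which has no value. Genes with the core therefore included both directions of change. Of those higher, Ctsd held its call under every alternative. Lamp1 was higher by its brightest probe set only, and Ctsf lost its call under 7 of 18 alternatives. Of those lower, only Cln3 lost its call, under 1 of 18. TGACTCA, the letters of an AP-1 site, stood in 2 of 44 (4.55%) and in 3.67% of all promoters. A match is a stretch of letters, and binding was not measured.

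The stretches around the motif are printed for the 8 genes past the threshold that hold TCACGTG on either strand, to show the motif before genes that moved in opposite directions. Each sequence is read 5′ to 3′ on the strand of its gene, and capitals mark the core CACGTG. Ctsd (chr1:206968822-206969018, minus strand) and Lamp1 (chr16:83075064-83075286, minus strand) were higher in Cy/+ kidneys, Lamp1 by its brightest probe set only. Gaa (chr10:105028248-105028333, plus strand), Cln3 (chr1:190597930-190598035, minus strand), Galc (chr6:123245560-123245619, minus strand), Glb1 (chr8:122963578-122963663, plus strand), Cstb (chr20:10247200-10247261, minus strand) and Mcoln1 (chr12:6358196-6358257, plus strand) were lower.
Ctsd: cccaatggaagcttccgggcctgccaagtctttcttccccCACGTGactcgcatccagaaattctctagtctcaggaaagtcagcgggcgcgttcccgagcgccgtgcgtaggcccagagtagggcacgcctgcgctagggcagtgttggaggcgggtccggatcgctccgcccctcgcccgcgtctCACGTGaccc
Lamp1: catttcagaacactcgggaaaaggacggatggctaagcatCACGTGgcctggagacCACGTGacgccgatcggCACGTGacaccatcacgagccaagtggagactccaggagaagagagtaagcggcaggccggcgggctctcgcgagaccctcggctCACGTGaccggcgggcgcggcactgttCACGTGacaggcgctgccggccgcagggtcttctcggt
Gaa: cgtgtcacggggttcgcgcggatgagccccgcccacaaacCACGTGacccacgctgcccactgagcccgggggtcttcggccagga
Cln3: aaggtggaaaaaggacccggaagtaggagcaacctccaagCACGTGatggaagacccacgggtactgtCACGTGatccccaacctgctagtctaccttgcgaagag
Galc: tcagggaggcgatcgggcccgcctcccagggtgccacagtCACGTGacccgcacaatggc
Glb1: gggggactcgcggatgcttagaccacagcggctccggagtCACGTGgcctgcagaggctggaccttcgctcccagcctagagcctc
Cstb: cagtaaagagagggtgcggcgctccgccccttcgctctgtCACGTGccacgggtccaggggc
Mcoln1: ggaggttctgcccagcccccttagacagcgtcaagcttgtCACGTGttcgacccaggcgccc
Lamp1 held 5 copies of the core, Ctsd and Cln3 held 2 each, and the other genes printed held 1. The copy nearest to the start site lay 10 bases before it in Ctsd, 20 in Galc, 22 in Cstb and in Mcoln1, 38 in Lamp1 and in Cln3, 67 in Gaa and 100 in Glb1.

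**Figure D2:**
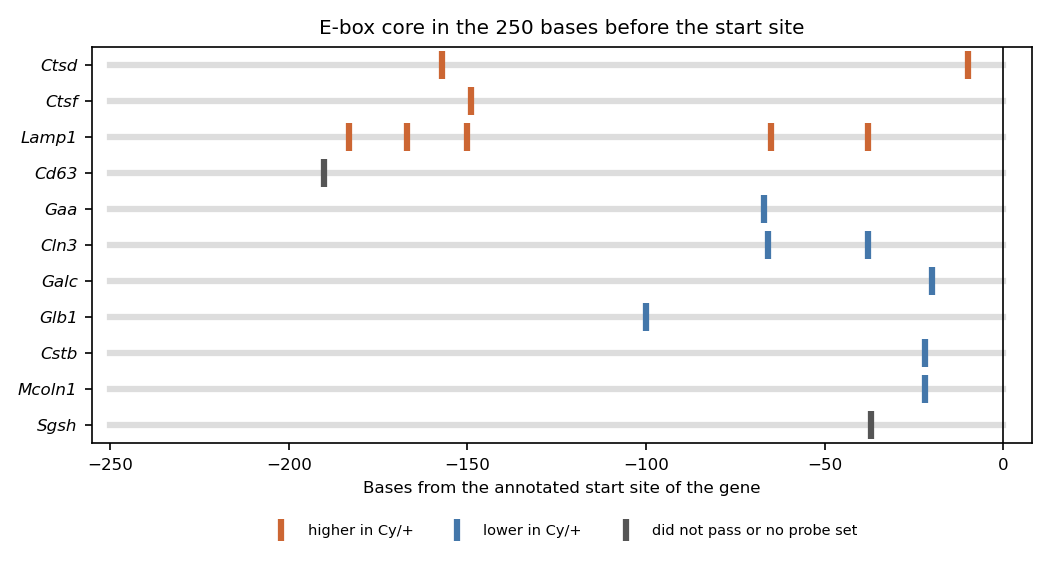
Each row is a lysosomal gene with the core CACGTG in the 250 bases before its start site, ordered by fold change, and the horizontal axis gives the distance from the start site in bases. Vertical ticks are the motifs, coloured by the brightest probe set of the gene. Orange marks genes higher in Cy/+, blue genes lower and grey Cd63, which did not pass, and Sgsh, which had no probe set. The 5 ticks of Lamp1 stand out, and the genes with the motif include both orange and blue.

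The cathepsins and other proteases split by enzyme. Of 13, 6 rose in Cy/+ kidneys, 4 fell and 3 did not pass, and 5 of these differed at least 2-fold. The 76.9% that passed stood beside 66.7% of all genes. Cathepsins D, E and Z were higher by more than 2-fold, while cathepsin A and legumain were lower by more than 2-fold. The median log2 fold change was -0.06 and the median absolute value 0.82. Only 3 proteases were higher without +/+ replicate 2, and 2 were lower when Cy/+ replicate 2 or 3 or +/+ replicate 1 or 3 was left out.

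Cathepsin E, an aspartic protease of endosomes found mainly in immune and epithelial cells, had the greatest fold change of the list. Its signals were 262.5, 1325 and 372.3 on the Cy/+ arrays and 72.9, 64.3 and 80.9 on the +/+ arrays. Cy/+ replicate 2 read several times the other Cy/+ arrays, and no array of either genotype overlapped the other genotype. The log2 fold change was 2.81 (SE 0.54, adjusted p = 0.00307), and it was 2.11 without Cy/+ replicate 2 and 3.28 without Cy/+ replicate 1. The +/+ mean lay below the filter signal of 77.8, and the Cy/+ mean was 6.50-fold above that signal, or 4.02-fold without Cy/+ replicate 2. Ctsz, a carboxypeptidase of macrophages and other cells, read 1124, 1273 and 979.4 in Cy/+ and 273.5, 282.3 and 318.7 in +/+. The genotypes were far apart, with a log2 fold change of 1.94 (SE 0.12, adjusted p = 3.30e-05). Ctsd, the main aspartic protease of lysosomes, read 9955, 9690 and 11000 in Cy/+ and 4559, 4341 and 4248 in +/+. It was 2.33-fold higher (log2 fold change 1.22, SE 0.08, adjusted p = 3.58e-05), with little spread within either genotype.

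The cysteine cathepsins K and S were higher with wider spread. Ctsk, the collagen-degrading cathepsin best known from osteoclasts, read 528.7, 279.5 and 284.1 in Cy/+ and 203.1, 170.4 and 203.2 in +/+. Its arrays did not overlap, and the log2 fold change of 0.86 (SE 0.25, adjusted p = 0.0181) was 0.56 without Cy/+ replicate 1, which was the highest. Its call was lost with the methods' t-test (adjusted p = 0.0776) and without +/+ replicate 2 (adjusted p = 0.0635), in a range over all alternatives of 0.00357 to 0.0776. Ctss, which processes antigen in antigen-presenting cells, read 3463, 2047 and 1721 in Cy/+ and 1143, 1343 and 1451 in +/+. Cy/+ replicate 1 was again the highest, and the log2 fold change was 0.82 (SE 0.25, adjusted p = 0.0221), or 0.52 without that array. Its call was lost with the methods' t-test (adjusted p = 0.0905) and without +/+ replicate 1 (0.0773) or +/+ replicate 2 (0.0549). Ctsf was higher by 0.36 on the log2 scale with an adjusted p of 0.0434, and by 0.22 without Cy/+ replicate 1. It lost its call under 7 of 18 alternatives, among them each +/+ array left out, with adjusted p between 0.031 and 0.116 over all of them.

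Legumain and cathepsin A were the proteases with the deepest decreases. Lgmn encodes the asparaginyl endopeptidase that activates other cathepsins and is abundant in proximal tubule. Its signals were 6390, 3525 and 3999 in Cy/+ and 9788, 9144 and 9847 in +/+. All Cy/+ arrays lay below the +/+ arrays, Cy/+ replicate 1 the least so, and the log2 fold change was -1.10 (SE 0.21, adjusted p = 0.00273). Ctsa, a carboxypeptidase that also protects the lysosomal galactosidase and sialidase, read 5952, 4182 and 4691 in Cy/+ and 10560, 9348 and 10230 in +/+. It was 2.05-fold lower (log2 fold change -1.04, SE 0.13, adjusted p = 0.000468).

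Cathepsins B and H were lower by smaller amounts. Ctsb, an abundant cysteine protease, read 11260, 8517 and 9166 in Cy/+ and 13090, 11480 and 12150 in +/+. The highest Cy/+ array lay just under the lowest +/+ array, and the log2 fold change was -0.35 (SE 0.12, adjusted p = 0.0308). Ctsh, an aminopeptidase, read 9889, 7482 and 6672 in Cy/+ and 10920, 10320 and 10050 in +/+. Its genotypes were separated as narrowly, with a log2 fold change of -0.40 (SE 0.14, adjusted p = 0.0408). The Ctsb call was lost with the methods' t-test (adjusted p = 0.083) and on leaving out Cy/+ replicate 2 (0.069) or 3 (0.0783) or +/+ replicate 1 (0.106) or 3 (0.0791). That of Ctsh was lost with the methods' t-test (adjusted p = 0.112) and without any single array other than Cy/+ replicate 1, with adjusted p between 0.0823 and 0.118. Ctsl, the other abundant cysteine cathepsin, had a log2 fold change of -0.29 (95% CI -0.61 to 0.02) and an adjusted p of 0.0894, and it passed after centring, with array weights and without Cy/+ replicate 1. Ctsc, which activates serine proteases of leukocytes, stood at -0.06 on the log2 scale (adjusted p = 0.667) and Tpp1, a tripeptidyl peptidase, at -0.10 (adjusted p = 0.422).

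**Figure D3:**
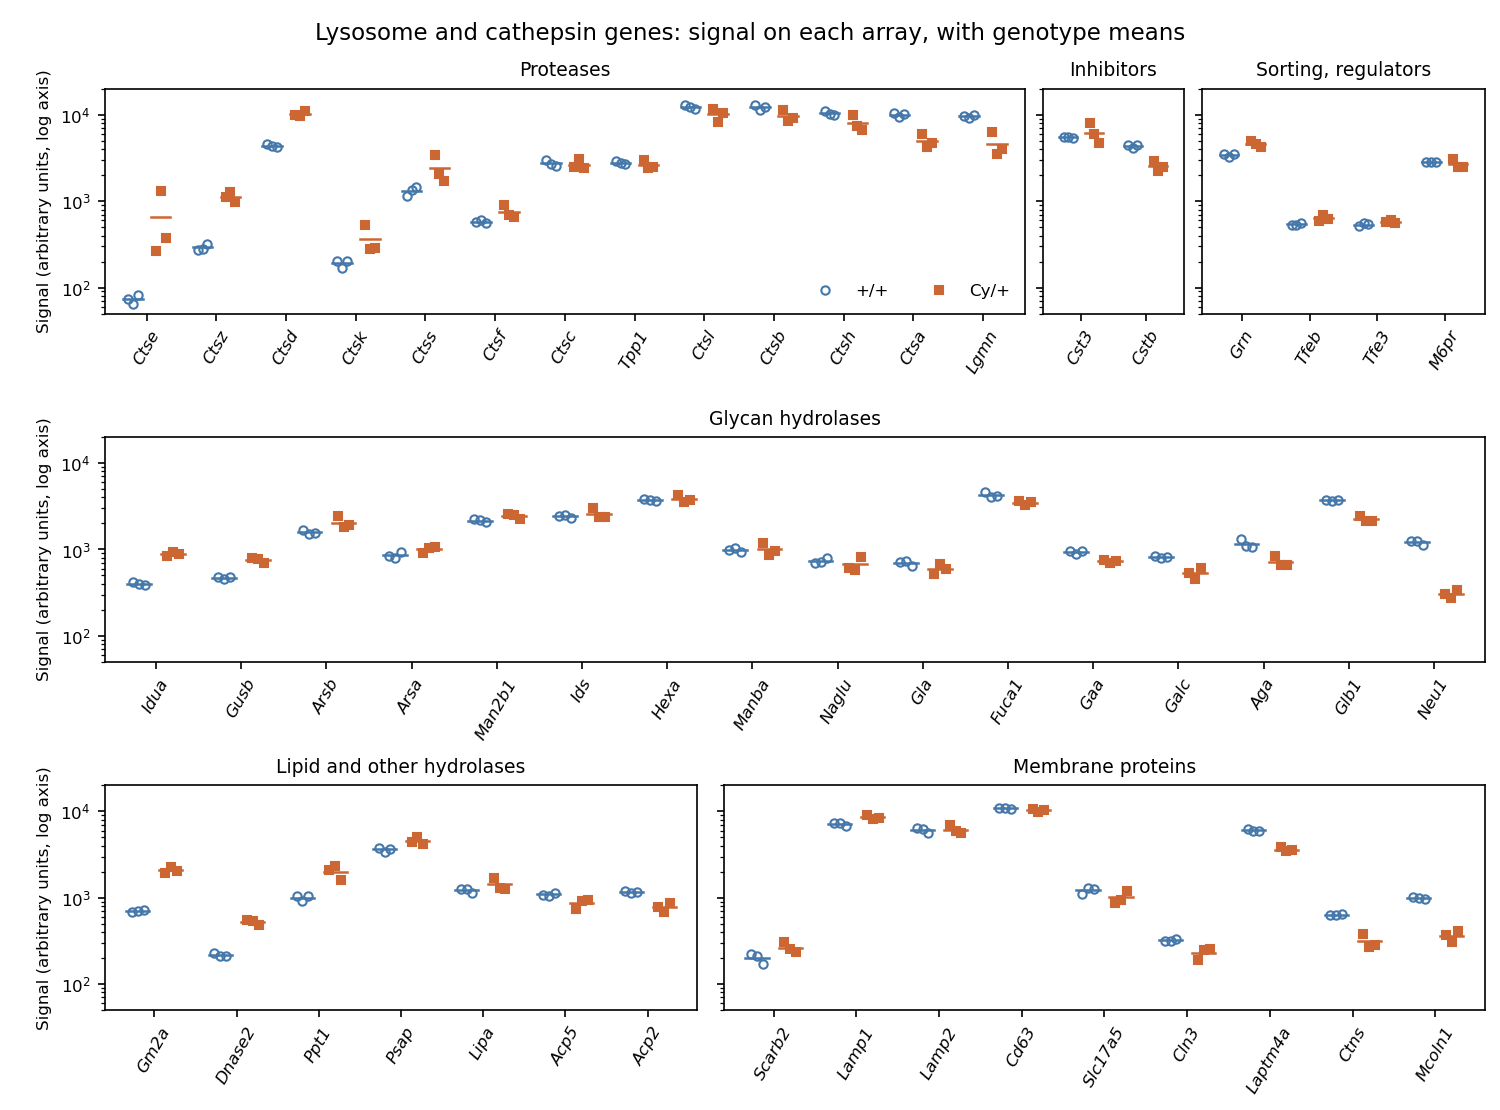
The signal of each lysosomal gene is plotted on a log axis in arbitrary units, with 1 panel per role. Open blue circles are the 3 +/+ arrays, filled orange squares the 3 Cy/+ arrays in the order of their replicate numbers, and short lines the genotype means. Ctse shows the widest spread of Cy/+ arrays, from 262.5 to 1325, and Neu1 the greatest distance downward. Heights of different genes cannot be compared, since each probe set has its own response.

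The cathepsin inhibitors on the list were both cystatins. Cstb, which blocks cysteine cathepsins inside the cell, read 2955, 2236 and 2475 in Cy/+ and 4439, 4179 and 4497 in +/+. All Cy/+ arrays were lower, with a log2 fold change of -0.78 (SE 0.11, adjusted p = 0.000725). Cst3, the secreted cystatin C, read 7971, 5929 and 4703 in Cy/+ against 5490, 5505 and 5403 in +/+. Its Cy/+ arrays lay on either side of the tightly grouped +/+ arrays, and the log2 fold change of 0.15 did not pass (adjusted p = 0.477). A further list of 9 cathepsin inhibitors had 2 that were bright enough to test, and both were higher. These were Cst7, a cystatin of leukocytes (log2 fold change 1.49, adjusted p = 0.000271), and Serpinb6, an intracellular serpin (1.12, adjusted p = 4.56e-05).

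Among the enzymes that remove sugars and sulfate from glycans, 3 of 16 rose, 6 fell and 7 did not pass. The sialidase Neu1 fell furthest and the iduronidase Idua rose furthest, and these 2 were the ones that differed at least 2-fold. The median log2 fold change was -0.07. Neu1 removes terminal sialic acids. Its signals were 301.9, 276.8 and 337.5 in Cy/+ and 1244, 1247 and 1137 in +/+. The genotypes were separated by a wide gap with little spread in either, and Neu1 was 3.97-fold lower (log2 fold change -1.99, SE 0.10, adjusted p = 2.24e-05). A further probe set of Neu1 was lower as well, with a log2 fold change of -1.24.

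Glb1, the lysosomal beta-galactosidase, read 2435, 2119 and 2127 in Cy/+ and 3734, 3680 and 3751 in +/+. No array overlapped, and the log2 fold change was -0.74 (SE 0.08, adjusted p = 0.00022). NEU1, GLB1 and the protective protein CTSA form 1 complex in the lysosome. All 3 of its genes were lower in Cy/+ kidneys, a grouping that was made after their values were seen. Aga, which cleaves the bond between asparagine and its glycan, read 830.1, 661.3 and 652.3 in Cy/+ and 1311, 1099 and 1075 in +/+. Galc, which degrades galactosylceramide, read 537.7, 458.7 and 608 in Cy/+ and 832.4, 803.6 and 820.8 in +/+. Both were lower on every Cy/+ array, by log2 fold changes of -0.70 for Aga (SE 0.13, adjusted p = 0.00233) and -0.62 for Galc (SE 0.11, adjusted p = 0.00232). Gaa, the glycogen-degrading alpha-glucosidase, was lower at -0.35 (adjusted p = 0.00693). Fuca1, the fucosidase, was lower at -0.29 (adjusted p = 0.0188) and lost its call with quantile normalization, where the log2 fold change was -0.08 (adjusted p = 0.362), and without +/+ replicate 1 (adjusted p = 0.0795).

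The glycan hydrolases past the threshold upward were Idua, Gusb and, by its brightest probe set only, Arsb. Idua, which removes iduronic acid from heparan and dermatan sulfate, read 846.2, 941.3 and 891.8 in Cy/+ and 415.7, 394.8 and 390.2 in +/+. The Cy/+ arrays stood clear of the +/+ arrays at 2.23-fold (log2 fold change 1.16, SE 0.08, adjusted p = 4.64e-05). Gusb, the beta-glucuronidase, read 788.6, 770.3 and 705.1 in Cy/+ and 482.8, 454.7 and 481.1 in +/+. It too was separated by genotype, with a log2 fold change of 0.67 (SE 0.08, adjusted p = 0.000381). Arsb, a sulfatase of dermatan sulfate, read 2409, 1797 and 1944 in Cy/+ and 1664, 1506 and 1555 in +/+. Its log2 fold change of 0.37 (SE 0.12, adjusted p = 0.0278) was opposite in sign to that of its other probe set, and the call was lost without any 1 of the +/+ arrays (adjusted p between 0.0522 and 0.0925), with the methods' t-test (0.0747) and after centring (0.0511). Ids and Naglu, which act on heparan sulfate, did not pass, at log2 fold changes of 0.09 and -0.14. Hexa, Manba, Man2b1, Gla and Arsa did not pass either, and lay between -0.24 for Gla and 0.23 for Arsa.

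Enzymes and activators of lipid breakdown, with a nuclease and the acid phosphatases, had 4 of 7 genes higher, 2 lower and 1 that did not pass, at a median log2 fold change of 0.32. The 85.7% past the threshold stood beside 66.7% of all genes. Gm2a, the activator that presents the ganglioside GM2 to hexosaminidase A, read 1951, 2295 and 2021 in Cy/+ and 690.6, 708.6 and 715.5 in +/+. It was 2.96-fold higher with narrow spread in both genotypes (log2 fold change 1.56, SE 0.09, adjusted p = 2.53e-05). The enzyme it assists, Hexa, had a log2 fold change of 0.04. Dnase2, the acid DNase that digests the DNA of engulfed cells, read 550.3, 540 and 485.2 in Cy/+ and 228.4, 212.7 and 209.3 in +/+. All its Cy/+ arrays were more than 2-fold above the +/+ arrays, with a log2 fold change of 1.28 (SE 0.09, adjusted p = 4.94e-05). Ppt1, a thioesterase that removes palmitate from proteins, read 2105, 2337 and 1592 in Cy/+ and 1042, 913.7 and 1058 in +/+. It was higher on every Cy/+ array (log2 fold change 0.99, SE 0.15, adjusted p = 0.000975).

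Psap, the precursor of the saposins that help degrade sphingolipids, read 4393, 5058 and 4208 in Cy/+ and 3809, 3396 and 3709 in +/+. The difference was smaller, at a log2 fold change of 0.32 (SE 0.09, adjusted p = 0.0196), and the call was lost after centring (adjusted p = 0.0545) and without +/+ replicate 2 (0.0793). Lipa, the lysosomal acid lipase, stood at 0.21 (adjusted p = 0.187). Both acid phosphatases were lower. Acp2, the phosphatase of most cells, read 775.9, 682.8 and 867.7 in Cy/+ and 1189, 1137 and 1177 in +/+, without overlap (log2 fold change -0.60, SE 0.10, adjusted p = 0.00175). Acp5, the tartrate-resistant form, read 747.5, 919.1 and 951.5 in Cy/+ and 1080, 1058 and 1134 in +/+. Its log2 fold change of -0.33 (SE 0.11, adjusted p = 0.0303) did not hold its call with the methods' t-test (adjusted p = 0.0662) or without any 1 of the +/+ arrays (between 0.0686 and 0.0961), which left 1 phosphatase lower.

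In the lysosomal membrane, the channel and transporter genes Mcoln1 and Ctns were lower by more than 2-fold. Of 9 genes, 2 rose, 4 fell and 3 did not pass, and the median log2 fold change was -0.29. Mcoln1 encodes a channel that releases calcium from lysosomes. It read 366, 309.6 and 408.8 in Cy/+ and 1022, 980.9 and 954.6 in +/+. The Cy/+ arrays lay far below, at 2.74-fold lower (log2 fold change -1.46, SE 0.12, adjusted p = 6.53e-05). Ctns, the exporter of cystine whose loss causes cystinosis, read 376.7, 272.1 and 286.5 in Cy/+ and 639.6, 633.9 and 643.4 in +/+. The +/+ arrays were nearly equal and well above all Cy/+ arrays, with a log2 fold change of -1.05 (SE 0.13, adjusted p = 0.00041).

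Laptm4a, a transmembrane protein of late endosomes and lysosomes, read 3826, 3478 and 3530 in Cy/+ and 6214, 5941 and 5883 in +/+. It was lower on each Cy/+ array (log2 fold change -0.74, SE 0.07, adjusted p = 0.000149). Cln3, a membrane protein mutated in a childhood neurodegenerative storage disease, read 190.2, 250.9 and 254 in Cy/+ and 311.8, 315.6 and 334.3 in +/+. The log2 fold change was -0.48 (SE 0.13, adjusted p = 0.014), and the call was lost without +/+ replicate 3 (adjusted p = 0.0526).

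The glycoproteins that line the membrane differed little by their brightest probe sets. Lamp1 read 9182, 8171 and 8337 in Cy/+ and 7294, 7359 and 6860 in +/+. Its arrays were apart, and it was higher by 0.25 on the log2 scale (SE 0.08, adjusted p = 0.0211), a call lost after centring (adjusted p = 0.0675) and without any 1 of the +/+ arrays (between 0.0518 and 0.0785). Scarb2, the receptor that brings glucocerebrosidase to the lysosome, read 304.7, 252.4 and 238.2 in Cy/+ and 221.1, 211.1 and 171 in +/+. The arrays were narrowly apart, and the log2 fold change of 0.40 (SE 0.14, adjusted p = 0.0392) lost its call under 8 of 18 alternatives, among them quantile normalization (adjusted p = 0.131) and each of 4 arrays left out in turn, Cy/+ replicates 1 and 2 and +/+ replicates 2 and 3. The number of membrane genes that were higher was accordingly 0 after centring and without +/+ replicate 2 or +/+ replicate 3, and 1 without +/+ replicate 1 or Cy/+ replicate 1 or 2. Lamp2 had a log2 fold change of -0.00 (95% CI -0.25 to 0.24), and with quantile normalization it passed at 0.23 (adjusted p = 0.041). Cd63, a tetraspanin of late endosomes, had one of -0.09 (adjusted p = 0.257), and Slc17a5, the exporter of sialic acid, one of -0.29 (adjusted p = 0.0999).

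Several genes had more than 1 probe set, and these did not always give the same answer. Of 67 probe sets for the 51 genes, 62 were tested, and 10 genes had more than 1 tested. In 6 of the 10 all probe sets had the same call, and in 2, Arsb and Lamp1, they were called in opposite directions. The dimmer Arsb probe set read 510.4, 414.2 and 455.7 in Cy/+ and 1029, 952.5 and 949.2 in +/+, a log2 fold change of -1.09, where the brighter one gave 0.37. The dimmer Lamp1 probe set had a log2 fold change of -1.29, with a Cy/+ mean below the filter signal, where the brighter one gave 0.25. For these genes the direction therefore belongs to the probe set and cannot be given for the gene. Gaa was lower by both, at -0.35 and -1.69. Ctsc differed in call, since its brighter probe set gave -0.06 and its dimmer one passed at 0.65, and Arsa passed only by its dimmer probe set, at -0.36.

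**Figure D4:**
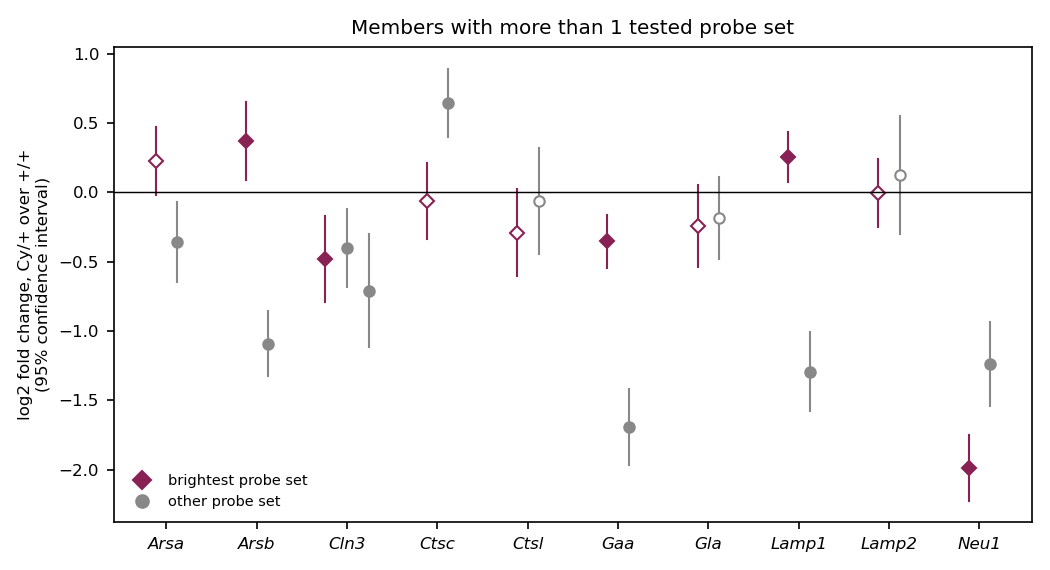
The log2 fold change, Cy/+ over +/+, is plotted with its 95% confidence interval for each tested probe set of the 10 genes that had more than 1. Diamonds are the brightest probe set of a gene and circles the others, filled where the adjusted p was under 0.05. Arsb and Lamp1 have filled symbols on both sides of 0, while those of Neu1, Gaa and Cln3 all lie below it.

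Lysosomal genes beyond the list of 52 were followed in 6 further groups, with 138 genes in all. Of 108 tested, 29 rose, 45 fell and 34 did not pass (68.5% past the threshold, beside 66.7% of all genes), and their median log2 fold change was -0.15. The proton pump that acidifies the lysosome had 12 of 20 V-ATPase genes lower, 1 higher and 7 that did not pass, at a median of -0.43. Past the threshold were 65% of these genes, close to the share of all genes, while 29.3% of all genes were lower. Atp6v1b2, a subunit of the pump's catalytic part, had a log2 fold change of -1.24, Atp6v0a4 -1.17 and Atp6v0d1 -0.86, and the one that was higher was Atp6v0a1 at 1.03. Some of these subunits also serve the plasma membrane pump of acid-secreting tubule cells. Of 17 regulators of lysosomal genes, 9 were lower and 3 were higher. Tfec, a relative of Tfeb, had the greatest decrease, from 980.4, 993 and 918.6 in +/+ to 430.9, 159.5 and 292.3 in Cy/+ (log2 fold change -1.83, adjusted p = 0.00201). Lamtor5 at -1.29 and Flcn at -0.56, which act in nutrient signaling at the lysosome, were lower, and Ppp3cb at 0.62, Ywhag at 0.50 and Zkscan3 at 0.37 were higher.

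The remaining groups were mixed. Of 21 further soluble hydrolases and activators, 7 were higher and 4 lower. Npc2, which hands cholesterol to the membrane for export, was higher at a log2 fold change of 1.05, as were Prcp at 1.01 and Ctso, a further cathepsin whose +/+ mean lay below the filter signal, at 1.47. Ggh at -1.41, Dpp7 at -0.97 and Ppt2 at -0.67 were lower. Of 22 membrane proteins and carriers, 7 were higher and 10 lower. Those that rose most were Laptm5 at 2.16 and Cd68 at 1.26, both of which are also on the macrophage marker list, and Tpcn2 at 1.15, and those that fell most were Mcoln2 at -1.39, with a Cy/+ mean below the filter signal, Slc29a3 at -1.04 and Clcn7 at -1.01. Of 26 genes for tagging and sorting, 9 were higher and 10 lower. Gga3 at 1.37, Sorl1 at 0.98 and Sort1 at 0.88 were higher, and besides Igf2r, Vps35 at -0.74 and Vps29 at -0.71 were lower.

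**Figure D5:**
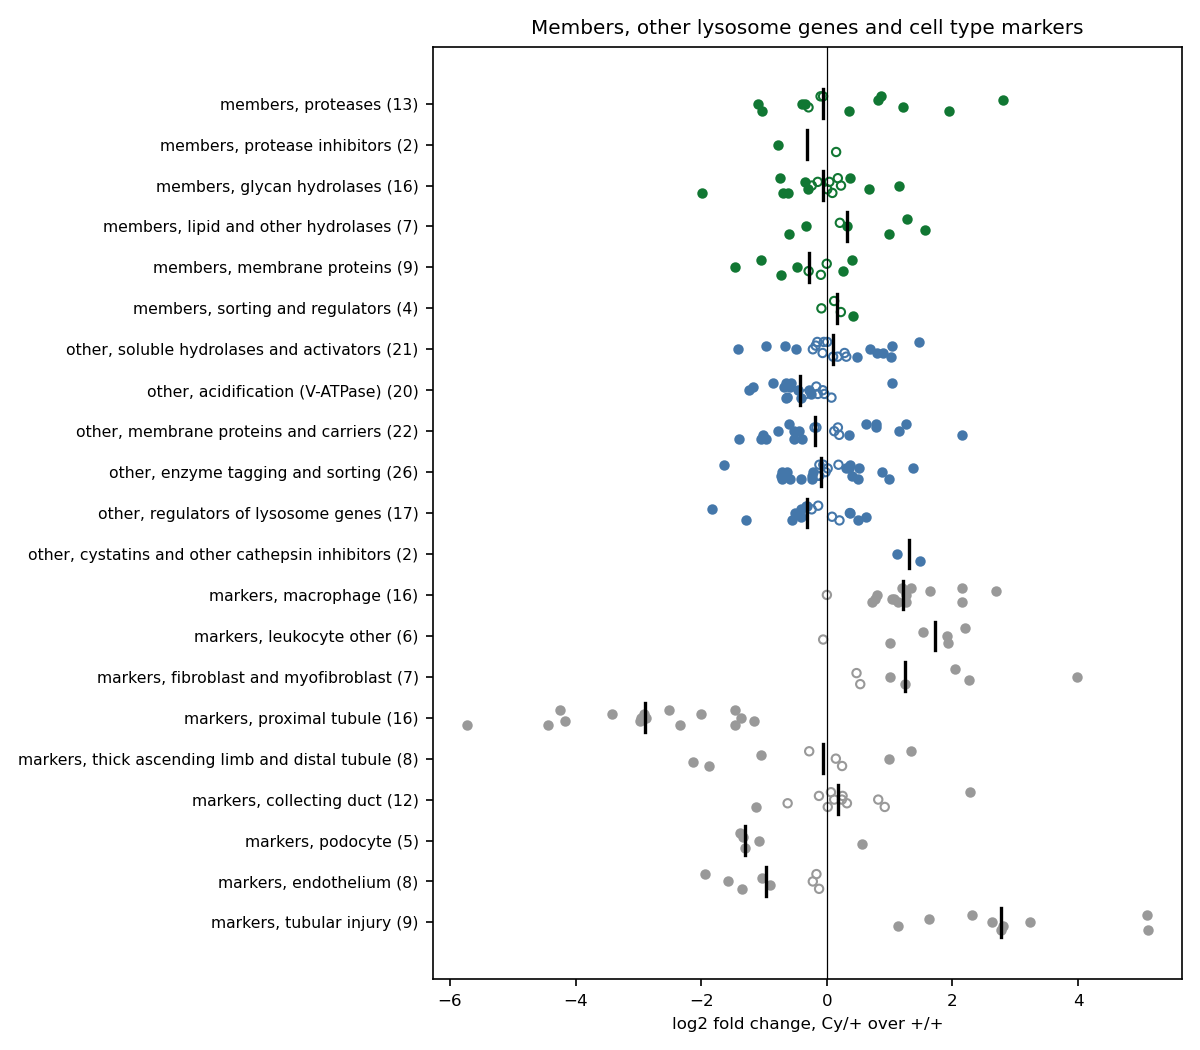
Each point is a gene, placed by its log2 fold change, Cy/+ over +/+, on the horizontal axis, with the lists on the vertical axis and the number of genes tested in parentheses. Green marks the lysosomal genes of the list of 52 by role, blue other lysosomal genes and grey cell type markers, filled where the adjusted p was under 0.05, and black bars are medians. The green groups straddle 0, while the proximal tubule markers lie below it with a median of -2.90 and 15 of 16 macrophage markers are filled to its right with a median of 1.22.

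The Cy/+ arrays differed among themselves more than the +/+ arrays. The median SD on the log2 scale over the 51 genes was 0.067 in +/+ and 0.19 in Cy/+, and 48 of them (94.1%) varied more in Cy/+, beside 78.2% of all genes. Cy/+ replicate 1 was the highest Cy/+ array for 31 of the 51 genes, and Cy/+ replicate 2 was the lowest for 24. The widest ranges among Cy/+ arrays were those of Ctse (2.34 on the log2 scale), Ctss (1.01), Ctsk (0.92), Lgmn (0.86) and Cst3 (0.76). For the last 4, Cy/+ replicate 1 was the highest array. That array also had the highest summed signal of macrophage markers, at 31005 against 23700 and 20719, and of fibroblast markers, at 32605 against 17206 and 18249. Among Cy/+ arrays it was the highest for podocyte, endothelium and tubular injury markers too. It was not the highest for the proximal tubule, thick ascending limb and distal tubule, collecting duct or other leukocyte markers. Cy/+ replicate 2, the highest for Ctse, had the lowest sum of proximal tubule markers, at 15785, and the highest sum of collecting duct markers, at 27448 against 9794 and 19974. These sums were set beside the lysosomal genes as measured, and their part in the spread was not tested.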

How the data were processed

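Total RNA of 3 Cy/+ and 3 +/+ kidneys was labeled by the authors from 5 μg with a one-cycle protocol, hybridized to rat genome 230 arrays and analysed with GCOS 1.2, and the submitters' processing notes name MAS5. The deposited values are linear signal intensities, 1 per probe set, from 10.65 to 32240. Their scaling between arrays is not given in the sources used here. Detection calls were not used here, so a filter on signal took their place.

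Signals were taken to log2 with no pseudocount or further scaling. Of 31099 probe sets, 57 controls were left out, and 18625 with a mean log2 signal at or above the 40th percentile (6.28, or 77.8 on the linear scale) were tested. Cy/+ was compared with +/+ in R 4.3.3 by limma 3.58.1, using lmFit and a trended eBayes without covariates, with Benjamini-Hochberg adjustment over all 18625. Symbols came from the platform annotation and were used as given there for the main list of lysosomal genes. For the other lists and the counts over all genes, they were updated by Entrez ID through a RefSeq gene table of GRCr8 (20764 probe sets matched). A single symbol was found for 20832 probe sets, more than 1 for 436, and 9831 are unnamed here. The fit was checked on simulated data that gave both genotypes the spread of the +/+ arrays. The wider spread of the Cy/+ arrays was not covered by that check. An exact permutation test of 3 against 3 arrays cannot give a two-sided p below 0.1 and was not used. The number of arrays limits the precision.

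The lysosomal genes and the other lists were chosen with earlier results of these data known. Values on each array are given for up to 4 genes each way in each role that passed and whose arrays did not overlap, and for a few others where the text turns on them. In each further list up to 3 genes each way are named. The alternatives tried were quantile normalization, centring, a floor of 32, a pseudocount of 16, no filter, the 60th percentile as filter, no intensity trend, array weights, the methods' t-test, a replicate block, averaging the probe sets of a gene, dropping probe sets prone to bind more than 1 transcript, and leaving out single arrays in turn.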

Additional observations from a re-analysis of the deposited data

How the results depend on the processing

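Of the 33 genes past the threshold, 21 kept call and direction under all alternatives run for them (Ctse under 17, since it is too dim for the 60th percentile filter). A floor of 32, a pseudocount of 16, no filter, the 60th percentile filter, no intensity trend and dropping probe sets prone to bind more than 1 transcript changed no call. Centring moved the median of all probe sets by 0.069 on the log2 scale. Quantile normalization moved the log2 fold changes of the tested probe sets by a median of 0.056. The cause of the changes that follow was not tested. Leaving out an array also leaves fewer samples.

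By the methods' t-test 3 proteases were higher and 2 lower, 1 lipid or other hydrolase was lower and 1 membrane protein was higher. Quantile normalization gave 5 glycan hydrolases higher. Membrane proteins that were higher numbered 0 after centring, 1 with array weights and 1 with the mean of probe sets. Sorting factors and regulators that were higher numbered 2 with array weights and 2 with the mean of probe sets. Over the fits that left out 1 array each, 9 to 17 lysosomal genes were higher and 13 to 20 lower. The ranges were 3 to 6 higher and 2 to 6 lower for proteases, 2 to 4 and 5 to 7 for glycan hydrolases, 3 to 4 and 1 to 2 for lipid and other hydrolases, 0 to 2 and 3 to 5 for membrane proteins, and 1 to 2 and 0 to 1 for sorting factors and regulators. The median log2 fold change ran from -0.08 to 0.03. Genes that had not passed did so in 3 cases with quantile normalization (Hexa, Man2b1 and, with its sign turned, Lamp2), 1 after centring, 3 with array weights, 1 when probe sets were averaged and at most 5 on leaving out an array, which was Cy/+ replicate 1.

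Signs turned for 2 genes past the threshold when probe sets were averaged, Lamp1 to -0.52 and Arsb to -0.36. They also turned for genes that had not passed. When probe sets were averaged, Lamp2 was 0.062, Ctsc 0.29 and Arsa -0.065. With quantile normalization Lamp2 was 0.23, M6pr 0.078, Tpp1 0.066 and Ctsc 0.10. After centring Hexa was -0.028 and Manba -0.061. With array weights Cst3 was -0.036, Ids -0.0026 and Manba -0.052. Over the fits that left out 1 array, the log2 fold change ran from -0.094 to 0.062 for Lamp2, -0.050 to 0.33 for Cst3, -0.037 to 0.10 for Hexa, -0.17 to 0.0048 for Ctsc, -0.030 to 0.15 for Ids and -0.11 to 0.11 for Manba.

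The labels number the arrays 1 to 3 in both genotypes. Deviations of same-numbered arrays correlated at 0.147, -0.110 and -0.151. With 3 arrays per genotype, such values cannot show whether the numbers pair the samples. With the replicate number as a block, the call of Ctsf was lost (adjusted p = 0.0608), which left 15 genes higher, and no other call changed.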
